A study of Mus musculus with 6 samples.

Results

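The genes described here encode the ATP-dependent chromatin remodellers of the mouse, namely the subunits of the SWI/SNF (BAF) complexes, the ISWI, CHD and INO80 families and 4 further ATPases of the SNF2 superfamily. They were 42 genes picked by symbol and matched to the gene names of the transcript models, out of 58329 genes in all, and every one of the 42 was found. Expression is given as TPM, a relative abundance that is corrected for transcript length and has the same total in every library. The TPM of all models of a gene were summed and each library was scaled to the other libraries, and a gene was tested where its mean over the 6 libraries reached 1 TPM. That left 38 of the 42 remodeller genes among 15491 genes tested.

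GL261 is a mouse glioma cell line. Total RNA was taken from it 4 h after addition of sodium chloride or of sodium propionate, each at 1 uM per the labels, and both salts bring the same sodium ion. The unit of that dose could not be checked from the files. Each salt had 3 libraries, which the sample titles number 1, 2 and 3 for chloride and 1, 4 and 5 for propionate. Whether these libraries came from separate cultures is not stated in the labels, and every p-value given here therefore reflects sample-to-sample spread alone, possibly technical.

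Remodellers use the energy of ATP to slide, space, evict or exchange nucleosomes, and each is built around an ATPase of the SNF2 type. SWI/SNF complexes open regulatory DNA, ISWI and CHD enzymes space nucleosomes, and the INO80 type exchanges histone variants. Many SWI/SNF positions can be filled by one of several paralogous proteins. In the nervous system, progenitors carry the subunits encoded by Actl6a, Phf10, Dpf2 and Ss18, and neurons exchange them for the products of Actl6b, Dpf1, Dpf3 and Ss18l1. Subunit genes of SWI/SNF are often lost in cancer, and Atrx, which deposits histone H3.3 with Daxx, is a common target of mutation in glioma.

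The libraries held 9.15 to 11.3 Gb of counted bases. Chloride 3 and propionate 1 stood apart, with 71452 and 71192 transcripts covered against 81178 to 82370 in the other libraries, and comparisons were repeated in the other 4, called the better-covered libraries. Of 9 markers of glioma and neural progenitor cells, 8 had at least 1 TPM on average, and Gfap averaged 0.933 TPM. Olig1 averaged 1.27 TPM and Olig2 1.51 TPM. The 9 summed to 3369 to 3818 TPM in chloride and 3679 to 4021 TPM in propionate, mostly Vim. Of 5 neuronal markers, Rbfox3 and Snap25 were listed at 0 in all libraries, while Tubb3 averaged 79.3 TPM and Map2 38.5 TPM. Of 5 microglia and macrophage markers, Itgam was listed at 0, while Cd68 averaged 3.82 TPM and Csf1r 1.56 TPM, and the list summed to 4.61 to 6.26 TPM in chloride and 4.75 to 6.14 TPM in propionate. The endothelial marker Kdr and the T cell marker Cd3e were listed at 0, and no marker of either list reached 1 TPM on average. Of 4 fibroblast and pericyte markers, Col1a1 averaged 88.4 TPM and Pdgfrb 1.29 TPM, while Dcn averaged 0.019 TPM and Rgs5 0.0032 TPM.

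No remodeller gene passed the test of propionate against chloride. With limma and Benjamini-Hochberg adjustment over all genes tested, 0 of the 38 passed an adjusted p of 0.05 in either direction. Across all genes 1 passed upward, a share of 0.00646%, and 0 downward, a share of 0.0%. At an unadjusted p under 0.05, 0 remodeller genes were higher and 1, Chd6, was lower, where 2.16% of all genes were higher and 2.98% lower. With voom on estimated reads 0 of all 15491 genes were called, and so 0 of the 38. The lowest adjusted p of any remodeller gene was 0.914. The values are of RNA from whole cultures, in which fewer cells of a kind and less RNA per cell cannot be told apart.

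The point estimates lay close to 0. By sign, 15 of the 38 were higher in propionate and 23 lower, where 51.8% of all genes tested were higher and 48.2% lower. Their median log2 difference was -0.030 and the range ran from -0.28 for Chd2 to 0.22 for Smarcd3, beside a median of 0.0055 for all genes and 0.012 for protein-coding genes. With the TPM as deposited, 5 were higher and 33 lower with a median of -0.12, but the median of all genes moved too, to -0.083. The 95% interval of the difference, taken on scaled TPM + 1, stayed within 1.5-fold in both directions for 37 of the 38 genes. The exception was Smarcd1, whose interval ran from -0.98 to 1.01. Among all 15491 genes tested, 12094 stayed within this bound. The added 1 narrows the interval of low genes, so in TPM itself some of the 37 can exceed 1.5-fold. For 4 genes the libraries of the 2 salts did not overlap, all lower in propionate (Smarcal1, Chd2, Chd6 and Baz1a), against 0 higher. Among all genes tested the groups failed to overlap downward for 6.46% and upward for 5.27%.

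**Figure D1:**
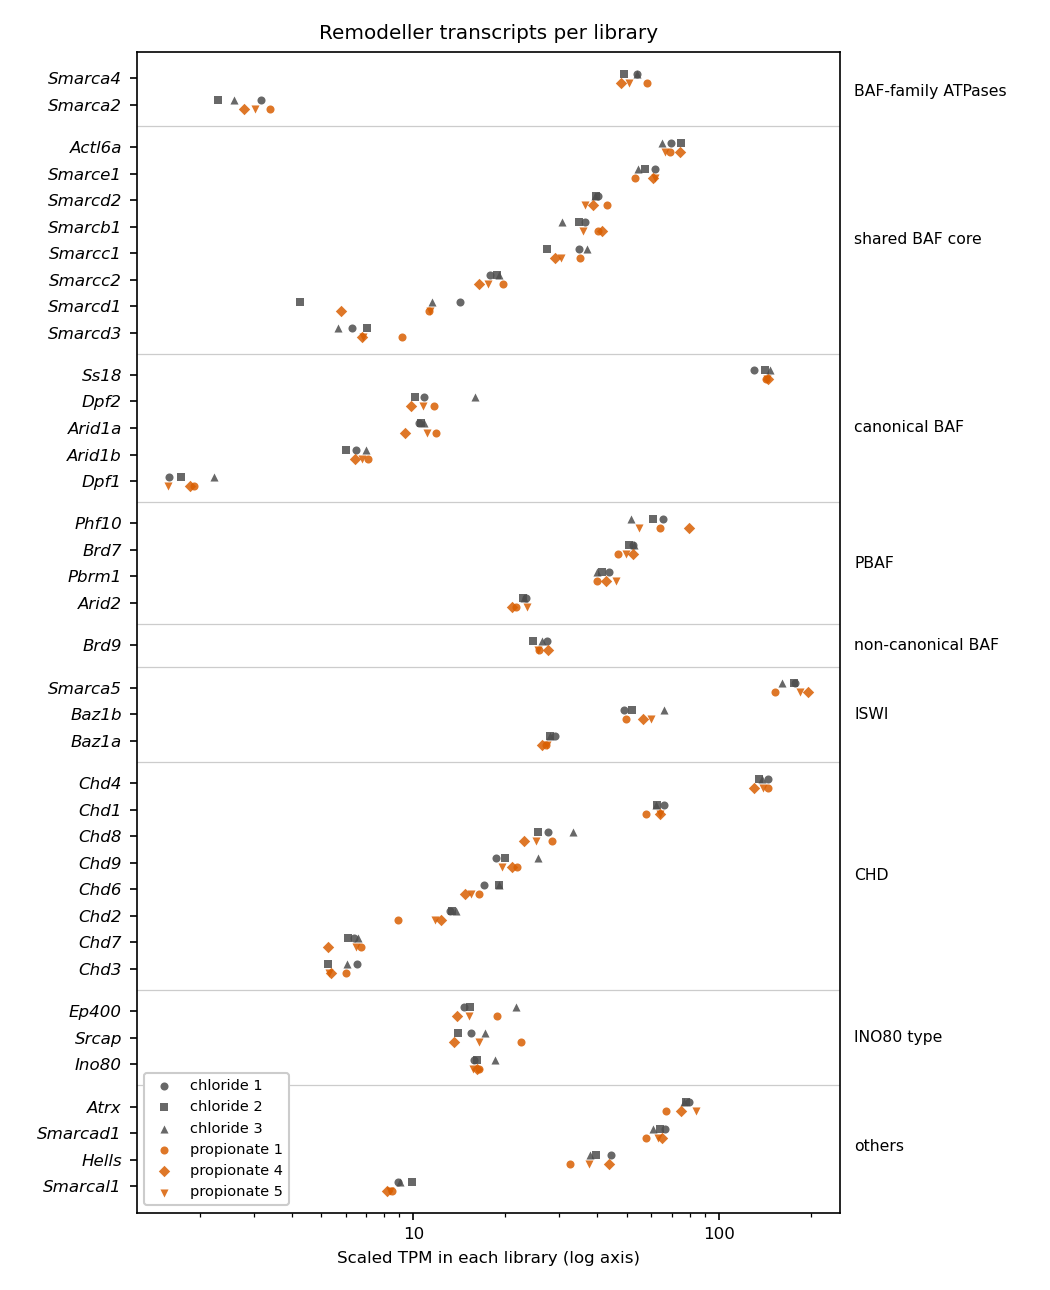
Scaled TPM of the 38 tested remodeller genes in each library, on a log axis, grouped by complex and ordered by mean level. Grey marks are the 3 chloride and orange marks the 3 propionate libraries. Levels ran from 1.82 TPM for Dpf1 to 174 TPM for Smarca5, and the colours overlap in all genes but Smarcal1, Chd2, Chd6 and Baz1a.

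**Figure D2:**
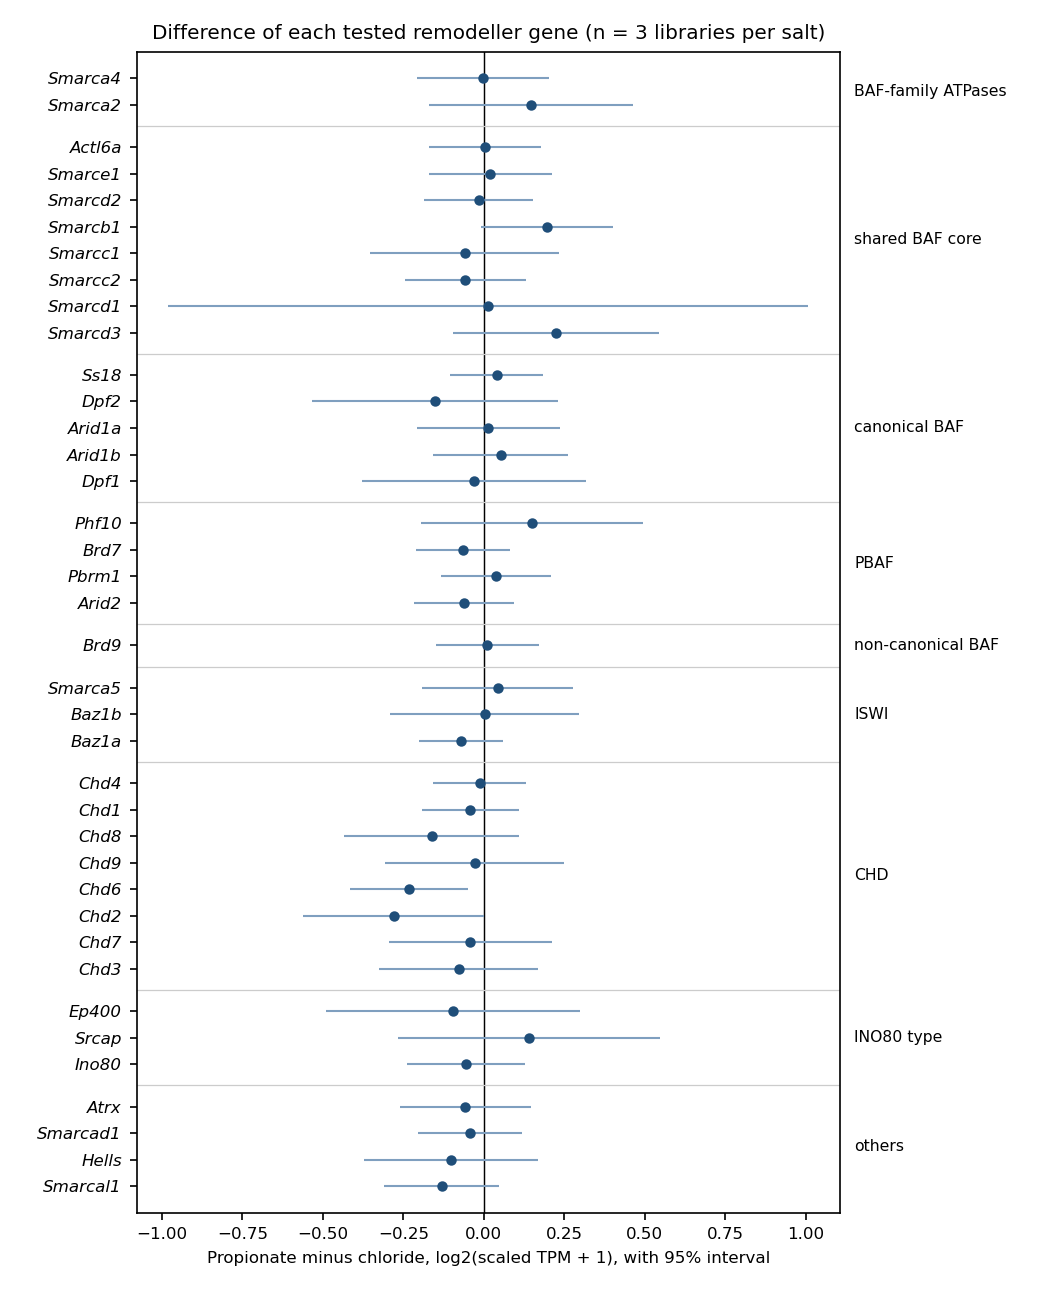
Difference of log2(scaled TPM + 1), propionate minus chloride, for each tested remodeller gene, with its 95% interval from limma over 3 libraries per salt. All intervals except that of Chd6 include 0, and that of Smarcd1 is the widest.

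Among the ATPases of the SWI/SNF complexes, Smarca4 (BRG1, chr9:21616169-21704230, mm10, plus strand) was the main paralog and Smarca2 (BRM, chr19:26605050-26778467, plus strand) the minor one. Smarca4 measured 53.8, 48.7 and 53.9 TPM under chloride (libraries 1, 2 and 3), against 58.2, 47.7 and 50.6 TPM under propionate (libraries 1, 4 and 5). Smarca2 measured 3.17, 2.30 and 2.59 TPM under chloride, against 3.38, 2.79 and 3.03 TPM under propionate. For both genes the salts overlapped, and the library numbered propionate 1 was the highest of the 6. Smarca4 exceeded Smarca2 by 18.2-fold as a geometric mean over the libraries, and by 16.7- to 21.2-fold in single libraries. Smarca4 made 94.4 to 95.5% of the TPM of the pair in every library. The differences between salts were -0.0027 (SE 0.087) for Smarca4 and 0.15 (SE 0.13) for Smarca2, and limma's adjusted p was 0.998 and 0.931. The difference of Smarca2 was 0.070 without chloride 2, 0.092 without propionate 1 and 0.076 in the 4 better-covered libraries.

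Of the shared SWI/SNF core, 8 of 9 genes were tested, with 5 higher and 3 lower by sign and 0 called. Actl6a, which encodes the actin-related subunit of progenitor complexes, had 65.0 to 74.8 TPM over the libraries. Its neuronal paralog Actl6b did not exceed 0.018 TPM in any library. Smarce1, the HMG-box subunit, ranged from 53.1 to 61.6 TPM. Smarcc1 and Smarcc2 encode the paired scaffold proteins BAF155 and BAF170, and Smarcc1 exceeded Smarcc2 by 1.76-fold, with a range of 1.45- to 1.94-fold. The log2 ratio differed between salts by -0.00045 (exact permutation p = 1.0 over the 6 libraries), and by 0.056 in the 4 better-covered libraries.

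Smarcb1, which encodes the core subunit SNF5 (BAF47) lost in rhabdoid tumours, gave the smallest p among the genes that were higher. It measured 36.4, 34.8 and 30.7 TPM under chloride, against 40.2, 41.2 and 35.7 TPM under propionate, so that propionate 5 fell inside the chloride range and propionate 1 and 4 lay above it. The difference was 0.20 (SE 0.087) with an unadjusted limma p of 0.0592 and an adjusted p of 0.914. It was 0.11 in the 4 better-covered libraries, 0.13 without chloride 3 and 0.064 with voom. Its models at chr10:75895782-75932502 (mm10, minus strand) split by an optional coding segment at chr10:75916773-75916799, which Smarcb1-201 holds and Smarcb1-202 lacks. It is shown because the choice of segment gives different protein forms. The 27 bases of the segment are in capitals between 24 coding bases on each side, on the strand of the transcript, from the GENCODE M21 transcript.
Smarcb1-201: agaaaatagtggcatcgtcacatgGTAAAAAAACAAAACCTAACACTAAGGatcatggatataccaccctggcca

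Models with the segment made 54.3, 67.2 and 51.8% of the TPM of the models that span it in chloride 1, 2 and 3. In propionate 1, 4 and 5 they made 56.9, 61.2 and 51.3%. Both forms were present in every library, and the salts overlapped (57.7 ± 8.27% and 56.5 ± 4.97%, SD, n = 3 each).

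The SMARCD position is filled by 1 of 3 paralogs, and Smarcd2 was the main one. Smarcd2 made 66.2 to 77.8% of the TPM of the 3 genes, Smarcd1 8.37 to 23.4% and Smarcd3 10.02 to 14.5%. Smarcd2 exceeded Smarcd3 by 5.72-fold (4.66 to 6.94), and the ratio of Smarcd1 to Smarcd2 was 0.227 (0.108 to 0.354). Smarcd1 measured 14.2, 4.25 and 11.5 TPM under chloride, against 11.3, 5.82 and 11.3 TPM under propionate. It was low in chloride 2 and propionate 4 and had the largest coefficient of variation of the 38 genes, 39.5%, against a median of 8.06% over the 38 and 10.5% over all genes. Its models share an assembled locus with Asic1. Smarcd3, the subunit typical of heart and muscle complexes, measured 6.30, 7.04 and 5.65 TPM under chloride, against 9.20, 6.77 and 6.85 TPM under propionate. Only propionate 1 exceeded the chloride range, and the difference was 0.22 (SE 0.14), with a limma adjusted p of 0.914. Without propionate 1 it was 0.095, and in the 4 better-covered libraries 0.028. The model Smarcd3-205, annotated as a retained intron, held 81.5% of the TPM of Smarcd3, while the protein-coding Smarcd3-201 held 7.48%.

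Canonical BAF is defined by the large DNA-binding subunits ARID1A and ARID1B. Arid1a measured 10.4, 10.6 and 10.8 TPM under chloride, against 11.8, 9.39 and 11.1 TPM under propionate, and Arid1b ranged from 6.001 to 7.09 TPM over all libraries. Arid1a exceeded Arid1b by 1.61-fold (1.46 to 1.76) in all 6 libraries, but with reference transcripts alone the order turned, with a mean log2 ratio of -0.075. Arid1a-205 holds, and Arid1a-202 lacks, a run of 15 coding bases at chr4:133686404-133686418 (mm10, minus strand) in a stretch rich in CAG and CAA. The segment is in capitals between 24 coding bases on each side, from the GENCODE M21 transcript, and is shown because models that hold it and the model that lacks it were given very different shares from library to library. Whether these bases decide that split was not tested.
Arid1a-205: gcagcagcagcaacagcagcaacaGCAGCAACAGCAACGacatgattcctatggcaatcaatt

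Models with this segment made 43.3, 97.5 and 54.1% of the TPM of the spanning models under chloride, against 9.52, 91.8 and 99.0% under propionate. The share swung within both salts, while the coefficient of variation of the Arid1a total over the libraries was 7.49%.

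Ss18, which encodes the subunit fused to SSX in synovial sarcoma, was second by its mean over the 6 libraries, at 130.3, 141.7 and 147.1 TPM in chloride and 142.4, 144.3 and 143.7 TPM in propionate. Chd4 exceeded it in chloride 1 and in propionate 1. Its neuronal paralog Ss18l1 averaged 3.03 TPM. Dpf2, which encodes the broadly expressed double PHD finger subunit, had 9.83 to 15.8 TPM, with chloride 3 the highest. Dpf1 had 1.58 to 2.22 TPM, and Dpf3 was listed at 0 in 5 libraries and at 0.128 TPM in propionate 4. Dpf2 exceeded Dpf1 by 6.30-fold (5.30 to 7.13) in all 6 libraries. None of the 5 tested canonical BAF genes was called, with 3 higher and 2 lower by sign.

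PBAF is the form of the complex that carries polybromo. Arid2, the PBAF counterpart of Arid1a, had 20.9 to 23.6 TPM, and the ratio of Arid1a to Arid2 was 0.473 (0.448 to 0.544). Pbrm1 (polybromo, BAF180) had 39.8 to 45.9 TPM and Brd7 46.7 to 52.9 TPM. Phf10, the PHD finger subunit of progenitor PBAF, measured 65.6, 60.5 and 51.5 TPM under chloride, against 64.2, 79.6 and 54.9 TPM under propionate. It exceeded Dpf2 by 5.47-fold (3.25 to 8.09). Its difference between salts was 0.15 (SE 0.15) with a limma adjusted p of 0.931, and the salts overlapped. Propionate 4 was the highest library, and without it the difference was 0.010. With voom it was -0.045. Of the 4 PBAF genes 2 were higher and 2 lower by sign, and 0 were called.

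Brd9 marks the non-canonical BAF complex, which lacks SNF5 and the ARID subunits. It had 24.5 to 27.5 TPM, and the ratio of Brd9 to its paralog Brd7 was 0.516 (0.484 to 0.553). This order held in all 6 libraries and turned with reference transcripts alone, with a mean log2 ratio of 0.29. Assembled models held 66.0% of the TPM of Brd7 and 19.6% of that of Brd9. The difference of Brd9 between salts was 0.010 (SE 0.068).

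The ISWI class held the most abundant remodeller transcript. Smarca5 (SNF2H), the nucleosome-spacing ATPase, measured 177.7, 176.3 and 160.5 TPM under chloride, against 152.9, 195.4 and 184.0 TPM under propionate. Its paralog Smarca1 (SNF2L), which is prominent in differentiated neurons, was listed at 0.018 and 0.020 TPM in chloride 1 and 2 and at 0 in the other 4 libraries. Baz1b, which encodes the partner subunit WSTF, had 48.7 to 66.0 TPM. Baz1a, which encodes the partner subunit ACF1, measured 29.1, 27.9 and 28.0 TPM under chloride, against 27.1, 26.4 and 27.4 TPM under propionate. The salts did not overlap for Baz1a, but the difference was small, -0.070 (SE 0.055), and its limma adjusted p was 0.924. Baz1b exceeded Baz1a by 1.99-fold (1.67 to 2.36) in all 6 libraries.

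In the CHD family, 8 of 9 genes were tested, and all 8 were lower in propionate by sign, with a median of -0.060 and 0 called. All 8 were lower also with voom on the same 6 libraries, and with the TPM as deposited, where 33 of the 38 remodeller genes were lower. With the TPM as deposited the family's median was -0.15 beside -0.083 for all genes. With 1 library left out 6 to 8 were lower, in the 4 better-covered libraries 7, and with sums over assembled loci 6. With reference transcripts alone 3 of 7 were lower and the median was 0.056. Chd4, the ATPase of the NuRD complex, dominated the family with 45.3 to 49.7% of its TPM and measured 144.1, 135.1 and 138.4 TPM under chloride, against 144.3, 130.1 and 139.4 TPM under propionate. Its NuRD paralog Chd3 had 5.24 to 6.52 TPM, and Chd5, known from neurons, had 0.117 to 0.270 TPM. Chd4 exceeded Chd3 by 24.2-fold (22.1 to 26.4), and the difference of Chd4 between salts was -0.013 (SE 0.061).

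Chd6, a DNA-dependent ATPase of the CHD6 to CHD9 group, gave the smallest p of all remodeller genes (chr2:160946978-161109075, mm10, minus strand). It measured 17.0, 19.1 and 19.1 TPM under chloride, against 16.4, 14.7 and 15.4 TPM under propionate. All propionate libraries lay below all chloride libraries, with means of 18.4 ± 1.22 and 15.5 ± 0.882 TPM (SD, n = 3 each). The difference was -0.23 (SE 0.078), its unadjusted limma p was 0.0202 and its adjusted p 0.914, with a range of the adjusted p from 0.605 to 1.00 over the other settings. With voom the difference was -0.099.

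The main protein-coding model of Chd6 overlapped between the salts. Chd6-201, with 72.1% of the TPM of the gene, measured 11.8, 12.5 and 12.4 TPM under chloride, against 12.6, 11.4 and 12.7 TPM under propionate. All other Chd6 models together measured 5.15, 6.62 and 6.67 TPM under chloride, against 3.84, 3.33 and 2.73 TPM under propionate, so that the salts overlapped for the main model and not for the remainder. Among the latter, the shorter protein-coding model Chd6-204 measured 1.76, 1.98 and 0.866 TPM under chloride, against 0.264, 0.185 and 0.0128 TPM under propionate, below the level at which models were tested. The same split into largest model and remainder was made for Chd2, Smarcal1, Smarcb1 and Baz1a. For Chd2, Smarcb1 and Baz1a both parts overlapped between salts, and for Smarcal1 neither did. How often such parts fail to overlap over all genes was not computed. Chd6 was picked by its p and its parts sum to the gene total, so its split is no further test of it.

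Chd2 (chr7:73426638-73544035, minus strand), a remodeller mutated in childhood epilepsy, had the largest difference of the 38 genes. It measured 13.1, 13.4 and 13.8 TPM under chloride, against 8.90, 12.4 and 11.7 TPM under propionate, with no overlap. The difference was -0.28 (SE 0.12), with an unadjusted limma p of 0.0509 and an adjusted p of 0.914. Propionate 1 was the lowest library, and without it the difference was -0.15. In the 4 better-covered libraries it was -0.13. Chd2 shares an assembled locus with the noncoding gene 1810026B05Rik, and summed over that locus the difference was -0.18.

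Chd1, which acts at transcribed genes, had 57.7 to 66.2 TPM and exceeded Chd2 by 5.19-fold (4.52 to 6.48). Chd1/Chd2 was the only 1 of the 17 tested pairs of paralogs whose balance did not overlap between salts. The share of such pairs among other genes was not computed. The pair holds Chd2, whose own libraries did not overlap, and so is no separate result. Its log2 ratio measured 2.33, 2.22 and 2.18 under chloride, against 2.70, 2.37 and 2.45 under propionate, a shift of 0.26. The exact permutation p was 0.1, the smallest that 3 libraries against 3 allow, and 0.680 after adjustment over the pairs, so the design could not have called it. In the 4 better-covered libraries the shift was 0.13.

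Among Chd6 to Chd9, Chd8, a gene tied to autism, was the most abundant at 23.1 to 33.2 TPM, Chd9 had 18.6 to 25.5 TPM and Chd7, mutated in CHARGE syndrome, 5.26 to 6.76 TPM. Chd8 measured 27.5, 25.6 and 33.2 TPM under chloride, against 28.4, 23.1 and 25.2 TPM under propionate. Chloride 3 was the highest and the salts overlapped, and the difference was -0.16 (SE 0.12), with a limma adjusted p of 0.915. Without chloride 3 it was -0.059 and without propionate 4 -0.094. It became 0.050 when summed over the assembled locus that it shares with Supt16 and 0.056 with reference transcripts alone. Over Chd7, Chd8 was higher by 4.32-fold (3.87 to 5.03), Chd9 by 3.35-fold (2.92 to 3.98) and Chd6 by 2.70-fold (2.37 to 3.13).

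The 3 ATPases of the INO80 type were almost equally abundant. Ino80 averaged 16.4 TPM, Srcap 16.5 TPM and Ep400 16.5 TPM. SRCAP and EP400 both exchange histone H2A.Z into nucleosomes, and the ratio of Ep400 to Srcap was 1.00 (0.832 to 1.26), above 1 in 3 of 6 libraries (exact sign-flip p = 0.906). With reference transcripts alone the mean log2 ratio was -2.15 (exact sign-flip adjusted p = 0.0486), with Srcap the higher. Assembled models held 78.6% of the TPM of Ep400. The differences between salts were -0.054 (SE 0.078) for Ino80, 0.14 (SE 0.17) for Srcap and -0.096 (SE 0.17) for Ep400, with 0 called. Over the alternative settings the difference ranged from -1.34 to 0.011 for Ino80, -0.32 to 0.30 for Srcap and -0.24 to 0.62 for Ep400.

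The 4 other ATPases were all lower by sign, with a median of -0.080, and 0 were called. Atrx had 66.9 to 84.1 TPM and Hells, a remodeller needed for DNA methylation of repeats, 32.6 to 44.3 TPM. Smarcal1 (chr1:72583251-72633319, plus strand), which remodels stalled replication forks, measured 8.91, 9.86 and 9.01 TPM under chloride, against 8.49, 8.21 and 8.38 TPM under propionate. The salts did not overlap, by a narrow margin. The difference was -0.13 (SE 0.075), with a limma adjusted p of 0.914. It was 0.55 with reference transcripts alone. The models of Smarcal1 went apart, with Smarcal1-201 at 0.614, 4.10 and 3.06 TPM under chloride against 7.70, 4.48 and 4.68 TPM under propionate, and all its other models together at 8.30, 5.76 and 5.94 TPM against 0.786, 3.72 and 3.70 TPM. The salts did not overlap for either, in opposite directions. These parts sum to the gene total, which ran only from 8.21 to 9.86 TPM, so opposite directions follow from the split itself. The share of Smarcal1-201 ranged over 83.9 points, between the libraries at 0.614 and 7.70 TPM. The highest chloride library, at 4.10 TPM, lay close to the lowest propionate library, at 4.48 TPM.

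**Figure D3:**
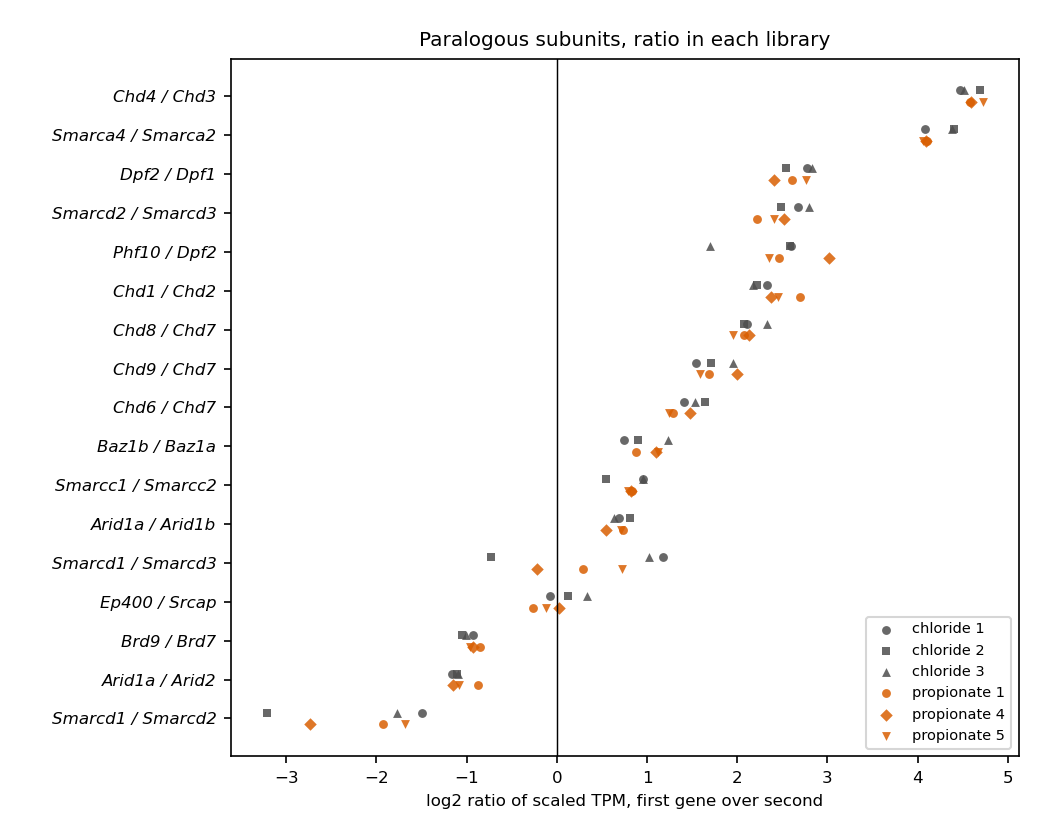
Log2 ratio of scaled TPM between paralogous subunits in each library, first gene over second, for the 17 pairs in which both genes were tested. Grey marks are chloride and orange marks propionate libraries. Pairs run from Smarcd1/Smarcd2 at the bottom to Chd4/Chd3 at the top, and only Ep400/Srcap and Smarcd1/Smarcd3 cross 0.

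Across the paralogs, 21 pairs were set up and 17 had both genes tested. In the other 4 (Smarca5/Smarca1, Actl6a/Actl6b, Dpf2/Dpf3 and Chd4/Chd5) the second gene was near 0. In 15 of the 17 the same gene was higher in all 6 libraries, with a two-sided exact sign-flip p of 0.031, the smallest that 6 libraries allow, and 0.0354 after adjustment. The exceptions were Ep400/Srcap and Smarcd1/Smarcd3, where Smarcd1 was higher in 4 of 6 libraries (p = 0.219, exact sign-flip) and lower on average with reference transcripts alone (-0.20). With reference transcripts alone 14 pairs could be tested, and 9 of them passed an adjusted p of 0.05 by the exact sign-flip test. Of these, 8 were among the 15, and the other was Ep400/Srcap, with Srcap higher (adjusted p = 0.0486). The orders of Arid1a/Arid1b and Brd9/Brd7, both among the 15, turned there, with mean log2 ratios of -0.075 and 0.29. The sign-flip p of the 15 follows from the same order in all 6 libraries and reflects spread between libraries alone. The balance between paralogs passed in 0 of the 17 pairs by the exact permutation test, whose lowest p was 0.1 and which cannot reach 0.05 with 3 libraries against 3.

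Single transcript models were tested next, 172 of the 507 models of the remodeller genes, from 37 genes. None was called by limma in either direction, where 0.0224% of all 35755 models tested were called higher and 0.014% lower. At an unadjusted p under 0.05, 2 were higher and 5 lower, against 1.99% and 2.59% of all models. The groups did not overlap for 4 higher and 10 lower models, against 4.53% and 7.72% of all.

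Both models with the smallest p came from Smarcad1, an ATPase that helps maintain heterochromatin and resect DNA ends. The assembled model MSTRG.18287.1 measured 34.2, 37.7 and 34.1 TPM under chloride, against 26.2, 28.5 and 24.5 TPM under propionate, a difference of -0.41 (SE 0.10). Smarcad1-201 measured 21.1, 16.9 and 15.8 TPM under chloride, against 22.8, 26.9 and 28.7 TPM under propionate, a difference of 0.53 (SE 0.16). The salts did not overlap for either model and the directions were opposite, while the gene total was 63.8 ± 2.76 TPM in chloride and 62.0 ± 4.04 TPM in propionate (SD, n = 3 each). The unadjusted limma p was 0.00857 and 0.0174, and the adjusted p was 0.862 for both.

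Smarcad1-201 holds and MSTRG.18287.1 lacks a stretch of 231 bases at chr6:65042731-65042961 (mm10, plus strand) outside the coding sequence. Smarcad1-201 was the only spanning model with it, and made 35.6, 29.8 and 29.8% of the TPM of the models that span it in chloride 1, 2 and 3. In propionate 1, 4 and 5 it made 45.9, 46.5 and 51.8%. This share was higher in each propionate library than in each chloride library. It restates the values of models that were picked by their p, and is no further result. In the 4 better-covered libraries the differences were -0.43 for MSTRG.18287.1 and 0.54 for Smarcad1-201.

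The next models by p were ENSMUST00000238844 of Ss18 (-0.41, SE 0.14) and Baz1b-203, annotated as a retained intron (-0.53, SE 0.18), both with a limma adjusted p of 0.862. Baz1b-203 measured 2.003, 1.66 and 2.05 TPM under chloride, against 1.02, 0.952 and 1.05 TPM under propionate, lower in all libraries of propionate.

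**Figure D4:**
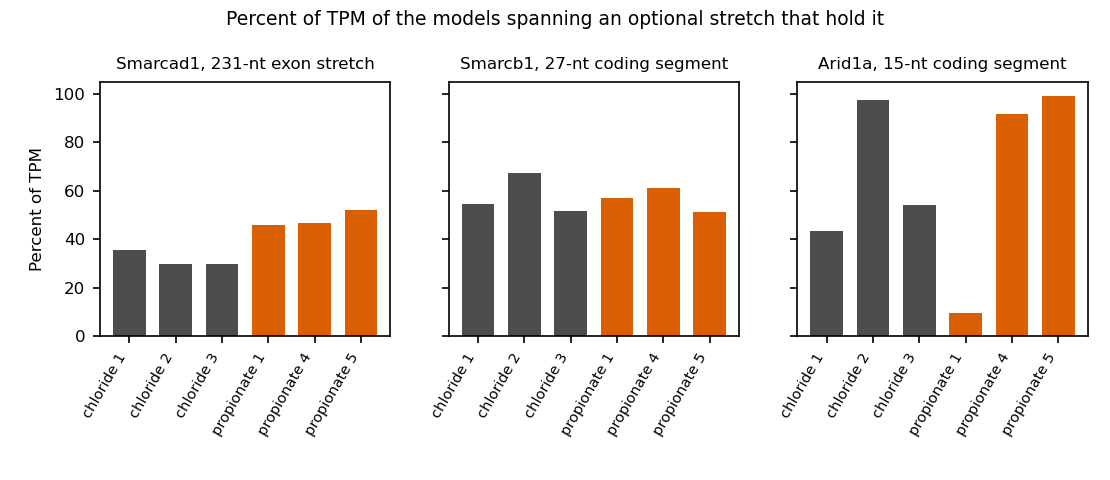
Share of TPM in models that hold an optional stretch, among the models of the gene that span it, in each library (grey chloride, orange propionate), for Smarcad1, Smarcb1 and Arid1a. The 3 propionate libraries lie above the 3 chloride libraries for Smarcad1, overlap for Smarcb1 and swing from 9.52 to 99.0% for Arid1a. The Smarcad1 stretch is held by Smarcad1-201 alone and was picked by the p of its models.

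Models annotated as retained introns were lower by sign in propionate more often than not, both in remodeller genes and over all genes. Of 33 tested retained-intron models of remodeller genes, 27 were lower by sign, with a median of -0.23 and 3 at an unadjusted limma p under 0.05. Among all genes 81.4% of 4054 such models were lower, with the same median of -0.23. Protein-coding models gave 24 of 66 lower with a median of 0.071, beside 43.6% and 0.034 for all genes. Retained-intron models made 6.38, 7.06 and 8.62% of the TPM of the remodeller genes under chloride, against 6.26, 5.89 and 5.56% under propionate. Over all genes the shares were 2.66, 2.68 and 3.10% against 2.18, 2.19 and 2.14%. The share was lower in each propionate library, with a narrow gap for the remodellers between chloride 1 and propionate 1, and chloride 3 was the highest. In the 4 better-covered libraries 21 of the 33 were lower with a median of -0.12, beside 75.9% and -0.18 for all genes. There 33 of the 66 protein-coding models were lower with a median of 0.0078, beside 45.5% and 0.022 for all genes. With such models left out, the median of the 37 remodeller genes then tested was -0.0027, with 17 higher and 20 lower. The part of library coverage in this difference was not tested.

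**Figure D5:**
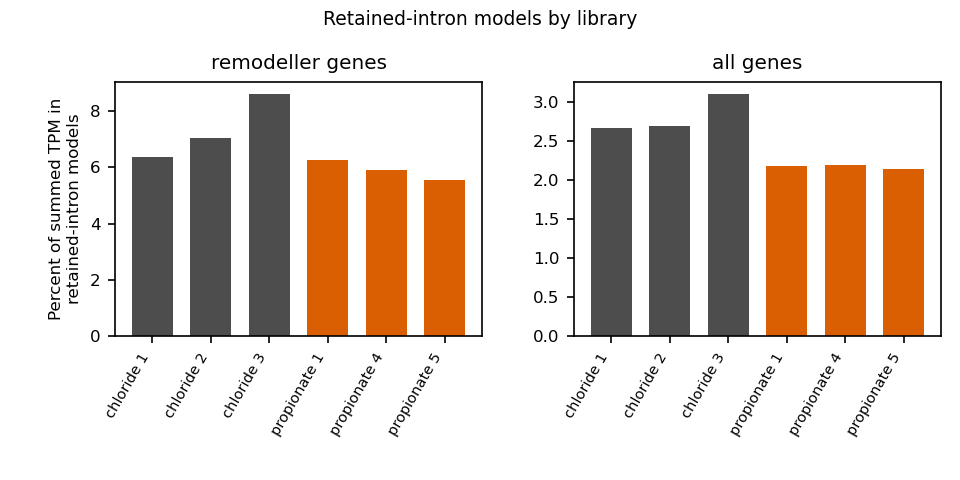
Percent of summed TPM in models annotated as retained introns, in each library, for the remodeller genes and for all genes (grey chloride, orange propionate, axes starting at 0). The 3 propionate libraries are lower than the 3 chloride libraries in both panels, and remodeller genes hold 5.56 to 8.62% against 2.14 to 3.10% for all genes.

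The reads of most genes were divided among several models. One model held over 80% of the TPM in 9 of the 38 genes, namely Smarca5-201 with 97.1%, Smarcd2-201 with 93.2%, Chd1-201 with 91.7%, Actl6a-201 with 90.8%, Baz1a-205 with 89.2%, an assembled model of Chd7 with 84.5%, Arid2-201 with 83.3%, Smarcd3-205 with 81.5% and Ino80-201 with 81.1%. Next came Hells-201 with 73.6%, Chd6-201 with 72.1%, Smarca4-204 with 67.6%, Dpf2-205 with 67.2%, Baz1b-201 with 66.5% and Smarcc1-201 with 66.2%, then Smarce1-201 with 58.1%, Smarcd1-201 with 53.1%, Arid1b-207 with 52.7% and Ss18-206 with 51.7%. In 19 genes the largest model held under 50%, from 49.1% for Smarcad1 down to 6.94% for Pbrm1. Among these the largest model was a reference transcript for Smarcal1-201 with 46.6%, Phf10-201 with 44.6%, Smarca2-201 with 41.8%, Dpf1-201 with 39.7%, Chd3-202 with 33.5%, Srcap-214 with 25.1% and Brd9-201 with 23.7%. It was an assembled model for Brd7 (38.6%), Chd2 (36.6%), Chd8 (36.6%), Smarcc2 (33.1%), Arid1a (33.1%), Ep400 (31.7%), Smarcb1 (27.1%), Atrx (24.4%), Chd4 (15.4%) and Chd9 (14.9%). For 11 genes the share of the largest model ranged over more than 50 points between libraries, which for Ino80 was 98.5 points while the coefficient of variation of the Ino80 total was 6.19%. Over 50% of the TPM lay in assembled models for 8 genes, led by Chd7 with 84.8%, and in 15 of the 38 the assembled locus also held another reference gene.

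The other subunits of the same complexes and the remaining SNF2-type ATPases, 66 genes listed from general knowledge, gave 0 calls as well. The list was drawn up with earlier results of these data known. By sign, 31 of the 64 tested were higher and 33 lower. Their median was -0.0013, and limma called 0, as did voom, which called 0 of all genes tested. At an unadjusted p under 0.05, 1 was higher and 0 lower, and the groups failed to overlap for 0 higher and 4 lower (Nfrkb, Mbtd1, Meaf6 and Rad54l), against the same 5.27% and 6.46% of all genes. The smallest p belonged to Morf4l1, which encodes the chromodomain subunit MRG15 of the TIP60 complex. It measured 79.9, 66.7 and 71.9 TPM under chloride, against 99.2, 91.6 and 79.3 TPM under propionate, with propionate 5 inside the chloride range. The difference was 0.30 (SE 0.10), the limma adjusted p 0.914 and the voom difference 0.070. Next came Ino80b (0.41, SE 0.18) and Nfrkb (-0.19, SE 0.088), both subunits of INO80, and Mbtd1 of the TIP60 complex (-0.24, SE 0.12), each with a limma adjusted p of 0.914. Without chloride 3 the difference of Ino80b was 0.21, and summed over the locus it shares with Wbp1 it was 0.18. Without propionate 1 that of Mbtd1 was -0.098, and without propionate 4 that of Nfrkb was -0.13.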

How the data were processed

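Total RNA libraries of GL261 (6 samples, 3 per salt) were made with the TruSeq Stranded Total RNA kit, per the labels. Tools named in the submitters' processing notes are fastp, HISAT2 and StringTie beside bcl2fastq, and the build is mm10. Per the file headers, StringTie 2.1.1 quantified 1 common set of 157296 reference and assembled transcript models per library, and the deposited values are coverage, FPKM and TPM, with no counts. The sources used here give no strand setting.

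Models were assigned to GENCODE M21 genes, and assembled models joined the reference gene of their locus. TPM were summed per gene and scaled by median ratios across the 6 libraries. Genes averaging 1 TPM or more, with a longest model of 200 nt or more, were tested on log2(TPM + 1) with limma 3.58.1 (R 4.3.3, lmFit, eBayes with trend), two-sided, with Benjamini-Hochberg adjustment over all genes. A difference on this scale understates the change of low genes. Single models were tested alike. Paralog ratios used exact permutation tests over libraries, and paralog order an exact sign-flip test. The limma fit was tested on simulated data. Python 3.11.15 read the files and matplotlib 3.10.9 drew the plots.

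The members, pairs, companion genes and other lists were chosen with earlier results of these data known. By the naming rule, all members, the 4 with the smallest p in each direction, and the 4 models and 4 companion genes with the smallest p are given. Chd6-204, Ss18l1, the retained-intron models and other genes by non-overlap were named after their values were seen. So were the optional stretches of Smarcb1 and Arid1a, and the splits of Chd6 and Smarcal1 into largest and other models. The Smarcad1 stretch was picked from the models with the smallest p. Alternatives are other pseudocounts, filters, scalings and sums, voom, and libraries left out.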

Additional observations from a re-analysis of the deposited data

How the results depend on the processing

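No remodeller gene or single model passed its threshold under any setting run. Neither did any paralog balance, but its exact permutation test cannot reach 0.05 with 3 libraries per salt or fewer. The number of genes called over the whole transcriptome, 1, was 0 with no filter on low values, 2 with a mean of at least 5 TPM, 6 in the 4 better-covered libraries (5 higher, 1 lower), 2 with sums over assembled loci, 0 with voom, and 1 to 4 with 1 library left out. The remodeller median was -0.12 with the TPM as deposited, 0.052 with reference transcripts alone, and -0.053 to 0.0019 with 1 library left out. Of the 17 paralog orders 15 passed, against 9 of 14 with reference transcripts alone (8 of the 15, and Ep400/Srcap), 0 in the 4 better-covered libraries and 0 with 1 library left out, where the test cannot pass with so few libraries. The sign of the difference between salts turned in at least 1 setting for 29 of the 38 genes, and the cause was not tested. In the 4 better-covered libraries the turned differences were Arid1a -0.037, Actl6a -0.037, Dpf1 0.027, Chd9 0.066 and Atrx 0.0099, the balances Smarcc1/Smarcc2 0.056 and Smarcd1/Smarcd3 0.029 and the order Ep400/Srcap -0.0080. With the TPM as deposited they were Smarca5 -0.054, Smarcd1 -0.076, Smarce1 -0.075, Arid1a -0.075, Arid1b -0.033, Pbrm1 -0.057, Brd9 -0.083, Actl6a -0.092, Ss18 -0.057 and Baz1b -0.093. With reference transcripts alone they were Smarcal1 0.55, Smarcad1 0.31, Smarcc1 0.056, Smarcc2 0.053, Smarcd1 -0.39, Arid1a -0.14, Brd9 -0.36, Chd3 1.12, Chd4 0.35, Chd8 0.056, Chd9 0.62, Srcap -0.32 and Ep400 0.62, the balances Smarcd1/Smarcd2 -0.37, Arid1a/Arid2 -0.17, Brd9/Brd7 -0.17, Chd4/Chd3 -1.83 and Ep400/Srcap 1.17 and the orders Smarcd1/Smarcd3 -0.20, Arid1a/Arid1b -0.075, Brd9/Brd7 0.29 and Ep400/Srcap -2.15. With retained-intron models left out, a setting chosen after seeing the data, they were Smarcd2 0.00084, Dpf1 0.21 and Dpf2 0.013. With sums over assembled loci they were Smarcd1 -0.086, Chd3 0.13, Chd8 0.050 and Ep400 0.14. With voom they were Dpf1 0.054, Phf10 -0.045 and Baz1b -0.18. With 1 library left out, the turned differences ranged for Smarca4 -0.082 to 0.058, Ss18 -0.0091 to 0.077, Chd4 -0.046 to 0.028, Baz1b -0.084 to 0.13, Smarcd1 -0.45 to 0.32, Brd9 -0.031 to 0.046, Smarca5 -0.030 to 0.15, Smarcc1 -0.19 to 0.026, Smarce1 -0.022 to 0.088, Actl6a -0.046 to 0.054, Dpf1 -0.097 to 0.061, Dpf2 -0.27 to 0.034, Chd9 -0.12 to 0.10, Ino80 -0.096 to 0.011, Ep400 -0.21 to 0.071, Smarcad1 -0.080 to 0.010, Arid1a -0.051 to 0.10, Chd1 -0.068 to 0.0062, Srcap -0.046 to 0.30, Atrx -0.14 to 0.023, Chd7 -0.10 to 0.053, Smarcd2 -0.080 to 0.037 and Pbrm1 -0.012 to 0.089. The balances ranged for Smarcc1/Smarcc2 -0.14 to 0.070, Smarcd1/Smarcd3 -0.84 to 0.12, Chd9/Chd7 -0.099 to 0.13, Baz1b/Baz1a -0.032 to 0.21, Smarcd1/Smarcd2 -0.48 to 0.38, Arid1a/Arid1b -0.085 to 0.013 and Arid1a/Arid2 -0.0019 to 0.14, and the order for Ep400/Srcap -0.060 to 0.061. No paired analysis was possible because chloride and propionate share only the library number 1. Coverage of 71192 to 82370 transcripts and 3 libraries per salt limit the precision.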

Other observations

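Chloride 3 held the highest value of 12 of the 38 tested genes (31.6%, beside 22.6% of all genes tested) and propionate 1 of 10 (26.3%, beside 25.3%). Propionate 4 held the lowest value of 13 (34.2%, beside 17.4%) and propionate 1 of 9 (23.7%, beside 24.4%). These shares were not tested. The median coefficient of variation over the 6 libraries was 8.06% for the 38 genes and 10.5% for all genes tested. Baz1a (3.36%), Chd4 (3.92%), Ss18 (4.11%) and Brd9 (4.44%) varied least. Smarcd1 (39.5%), Srcap (19.6%), Dpf2 (19.3%) and Ep400 (18.1%) varied most, and the last 3 of these were lowest in propionate 4. The 42 genes summed to 1458 to 1510 scaled TPM per library.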
